A study of Homo sapiens with 10 samples.

Results

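SK-OV-3, an established human ovarian cancer cell line, was compared with 6 other ovarian cancer lines by long-read RNA sequencing. SK-OV-3 contributed 1 of the 10 libraries of the series. It was set against OVMANA, OVKATE, OVTOKO, COV362 and COV504, with 1 library each, and against the mean of a pair of IGROV-1 libraries. All of these libraries were run on the PromethION, a nanopore instrument that reads long molecules from end to end. A pair of IGROV-1 libraries from the smaller MinION entered only an alternative fit. The labels name the line and the instrument and give no treatment, genotype or culture condition for any sample. RNA was total RNA from a column kit. Each line other than IGROV-1 rests on 1 library, and nothing in the labels says whether the IGROV-1 pair came from separate cultures.

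SK-OV-3 is widely used as a model of HER2-positive ovarian cancer. HER2 is the product of ERBB2, a receptor tyrosine kinase that signals through RAS and PI3K, and tumours gain extra copies of it together with neighbouring genes on the long arm of chromosome 17. Matrix and mesenchymal genes encode collagens, fibronectin and the factors of a spindle-shaped, migratory state, while epithelial genes encode the keratins and junction proteins of a polarised sheet. Long reads also show which transcript of a gene was made, because a read can span the exons that tell transcripts apart.

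The SK-OV-3 library held 1974467 estimated counts, and the 8 PromethION libraries held 1729782 to 2552499. Levels are given as CPM, the counts of a gene scaled to a library total of 1000000. In SK-OV-3 a count of 0 allows up to 1.52 CPM, which is 3 counts, and intervals and floors cover counting error only. In bulk RNA, fewer cells expressing a gene and less RNA per cell cannot be told apart. SK-OV-3 has no replicate, so genes were first described by a rule with no test. A gene had to lie at least 2-fold above, or below, every other line on the log2(CPM + 1) scale. A gene above needed at least 10 CPM in SK-OV-3, and a gene below needed at least 10 CPM in every other line.

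By this rule 312 of 11211 genes with at least 10 CPM in a line (2.78%) lay above every other line in SK-OV-3. A further 76 (0.678%) lay below every other line. Not all of the 11211 genes reached 10 CPM in every other line, so the shares above and below are not alike. Without OVTOKO the number below was 118. The same rule placed 122 to 653 genes above and 40 to 182 below in each of the other lines, with OVKATE highest on the first count and IGROV-1 on the second. Of the genes above, 295 were protein-coding, 92 were at least 4-fold above and 10 had no count in any other library. Without the fold requirement, SK-OV-3 was the highest of the 7 lines for 2103 genes (18.8%) and the lowest for 1008 (8.99%). SHMT2 was the coding gene just inside the rule, with 226 CPM against 112 in the next line, and KLHL22 just outside it, with 29.4 against 14.2. Across genes, the Spearman correlation with SK-OV-3 ran from 0.688 for OVKATE to 0.781 for OVTOKO. These correlations are over genes of libraries that share a protocol, and genes are not independent replicates.

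Against the spread between the 6 other lines, edgeR's quasi-likelihood test called 1 of 12738 genes higher (0.00785%), PPP1R1B. Its Benjamini-Hochberg adjusted p was 0.0051 and its log2 change 12.32. The other libraries held a single count for this gene, so the size of that change is poorly fixed. The call was lost without COV504 (adjusted p = 0.81) and without COV362 (adjusted p = 0.054). The same test called 0 genes lower (0%), while DESeq2 called 15 higher and 54 lower. A different question, whether SK-OV-3 differs by more than the pair of IGROV-1 libraries differ, was met by 2070 genes higher (16.1%) and 1052 lower (8.18%) of 12868. That fit has 1 residual degree of freedom and takes the lone libraries to vary like IGROV-1. It is called the library-spread test below, and its calls are differences between libraries, not evidence that SK-OV-3 lies outside the range of ovarian lines.

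The markers given for SK-OV-3 fitted the library in part. SPARC, a secreted glycoprotein that binds collagen, had 2043 CPM in SK-OV-3, against 843 in OVKATE, 510 in COV504, 313 in COV362, 4.05 in OVTOKO and 0 in OVMANA and IGROV-1. VIM, the intermediate filament vimentin, had 5964 CPM against 3663 in OVTOKO, 2637 in COV362 and 351 to 870 in the rest. Both were highest in SK-OV-3. VIM was 1.63-fold above OVTOKO and so did not pass the 2-fold rule, and SPARC was 2.42-fold above OVKATE. ERBB2 and PPP1R1B were above every other line by wider margins. The epithelial markers KRT8 and KRT18, the keratins of simple epithelia, had 249 and 309 CPM, and PAX8, the lineage factor of Müllerian epithelium, had 84.1 CPM. KRT18 and PAX8 were the lowest of the 7 lines, each next to another line (OVTOKO at 314 and COV504 at 91.7).

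**Figure D1:**
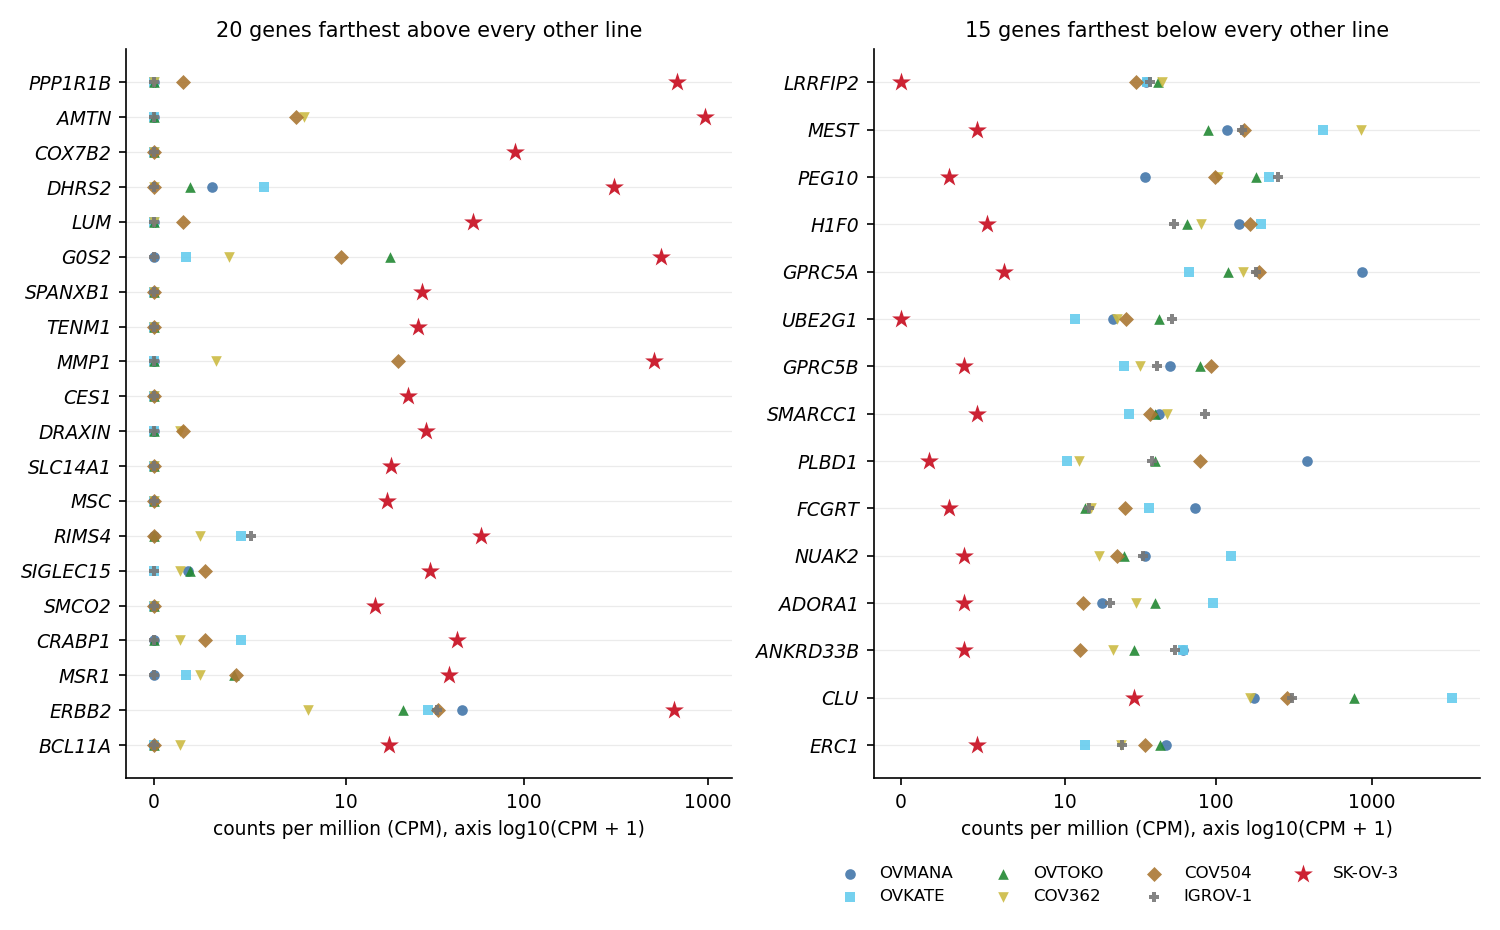
Level of the 20 coding genes farthest above every other line (left) and the 15 farthest below (right), in CPM on a log10(CPM + 1) axis. Each symbol is a line, IGROV-1 being the mean of a pair of libraries, and the star is SK-OV-3. The PPP1R1B star sits at 676 CPM with the other lines at 0 to 0.445, and the LRRFIP2 star sits at 0 with the others at 30.3 to 45.1.

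ERBB2 and its neighbours formed the clearest block of high genes. ERBB2 (chromosome 17, 39687914 to 39730426, GRCh38) stood at 655 CPM in the SK-OV-3 library (95% Poisson interval 620 to 692). The other lines had 45.4 (OVMANA), 33.4 (COV504), 33.0 (IGROV-1, from 26.1 and 39.9), 29.7 (OVKATE), 21.4 (OVTOKO) and 5.88 (COV362), a mean of 28.1 ± 13.4 (SD, n = 6 lines). SK-OV-3 was the highest of the 7 lines, as it was for 18.8% of all genes, and 14.4-fold above OVMANA (counting interval 11.6 to 18.2). ERBB2 was not called against the spread between lines (log2 change 4.38, edgeR adjusted p = 0.34) and was called by DESeq2 (adjusted p = 0.0018) and by the library-spread test (adjusted p = 0.0024).

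All 13 tested genes starting within 300 kb of ERBB2, counting ERBB2 and PPP1R1B, lay above the mean of the other lines. By the 2-fold rule 7 of them lay above every line, beside 2.78% of all genes. ERBB2 and PPP1R1B were given as markers of SK-OV-3, so they are no independent evidence here. The median log2 difference of the 13 genes from the mean of the other lines was 2.14, against 0.16 over all tested genes. That median is the value of TCAP, which had 5.06 CPM in SK-OV-3 and at most 1.48 elsewhere. TCAP passed the expression filter through SK-OV-3 alone, which set its direction. In the other lines, each set against the remaining 6, the median of these genes was -1.09 to 0.20. STARD3, a late-endosomal cholesterol transfer protein, had 329 CPM against 11.9 to 30.7. PGAP3, which remodels the lipid of GPI anchors, had 89.6 CPM against 3.53 to 13.4, and MIEN1, a small membrane-anchored protein, had 487 against 59.5 to 153. PNMT, the enzyme that makes adrenaline, was at 23.8 CPM against at most 0.989. ORMDL3, a regulator of sphingolipid synthesis farther along the chromosome, had 109 CPM against 18.4 to 46.0. GRB7, an adaptor that binds the ERBB2 tail, was highest in SK-OV-3 at 86.1 CPM but only 1.38-fold above OVMANA at 62.5, so it did not pass the rule.

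The excess narrowed with distance. The median difference was 3.72 over the 8 genes within 100 kb, again counting ERBB2 and PPP1R1B. It was 1.12 over the 38 within 1000 kb, of which 33 lay above the mean of the other lines. The ribosomal protein genes RPL19 and RPL23 in the same interval differed by 0.2 and 0.3, and CDC6, a replication licensing factor, was lowest in SK-OV-3 at 14.2 CPM against 20.3 to 54.0. Of 26 genes of the list of 17q12 neighbours with at least 10 CPM in a line, 20 were highest in SK-OV-3 and 8 lay above every line by the 2-fold rule, beside 18.8% and 2.78% of all genes. The list was drawn up around ERBB2, so these counts are no independent evidence of its direction.

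**Figure D2:**
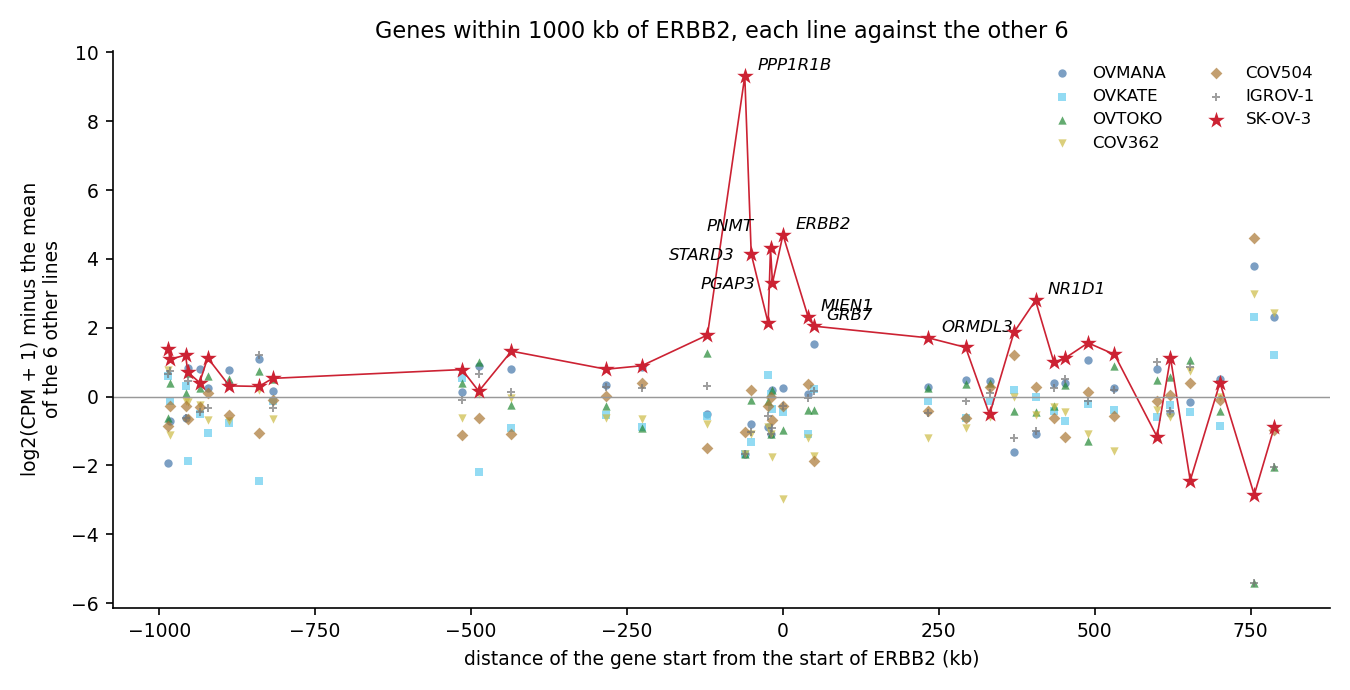
Log2(CPM + 1) of genes within 1000 kb of ERBB2, each line minus the mean of the remaining 6, against the distance of the gene start from the start of ERBB2 in kb. Stars joined by a line are SK-OV-3, which rises to 9.31 at PPP1R1B and 4.70 at ERBB2, above every other line at both.

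PPP1R1B, 61 kb upstream of ERBB2 (chromosome 17, 39626740 to 39636626), was measured at 676 CPM in SK-OV-3 from 1334 counts. The other libraries held a single count between them, in COV504. The ratio to COV504 was 1519 with a counting interval of 272 to 60025, and no fold is given against the lines at 0. PPP1R1B encodes DARPP-32, an inhibitor of protein phosphatase 1 best known from dopamine-responsive neurons, and a shorter form, t-DARPP, that starts at a later codon and lacks the site by which the full-length protein inhibits the phosphatase. The full-length transcript PPP1R1B-201 held 85.7% of the gene's counts in SK-OV-3 (95% Wilson interval 83.8 to 87.5). The shorter-coding transcripts PPP1R1B-203 and PPP1R1B-202 held 10.8% (9.21 to 12.5) and 2.74% (1.99 to 3.77). Both have a coding length of 504 bases against 612 in the full-length form, stop codon left out. The stretch that tells them apart is shown because it decides which protein a read stands for: capitals mark the first 108 coding bases of PPP1R1B-201, which are outside the coding sequence of PPP1R1B-203 (chr17:39627393-39627473 and chr17:39629170-39629196, plus strand, GENCODE 29), and lower case marks the shared bases that follow.
PPP1R1B-201: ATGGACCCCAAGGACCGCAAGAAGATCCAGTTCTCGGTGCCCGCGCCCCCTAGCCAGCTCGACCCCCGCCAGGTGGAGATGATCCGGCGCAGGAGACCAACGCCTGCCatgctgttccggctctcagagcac

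The lower-case part opens with the codon at which the shorter form begins. ERBB2 itself was read almost entirely as the full-length transcript ERBB2-201, with 94.7% of its counts in SK-OV-3 (93.4 to 95.8) and 87.0% to 96.7% in the other lines. The share of ERBB2-201 in SK-OV-3 thus lay inside the range of the other lines, although its level did not.

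Of the 20 coding genes farthest above the other lines, those outside the ERBB2 region are taken in turn. AMTN, amelotin of the enamel surface, had 960.3 CPM in SK-OV-3, with 5.48 in COV362, 4.89 in COV504 and 0 in the rest. MMP1, the interstitial collagenase, had 506 CPM with 20.02 in COV504, 1.18 in COV362 and 0 in the rest, a ratio of 25.3 to COV504 (18.8 to 34.9). G0S2, an inhibitor of triglyceride lipolysis, had 557 CPM with 17.9 in OVTOKO and 9.34 in COV504. In each of these the lines with counts were a minority, and SK-OV-3 stood apart from all of them.

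DHRS2, a mitochondrial short-chain dehydrogenase, had 309 CPM against at most 2.97, and CRABP1, a cytoplasmic carrier of retinoic acid, had 42.5 against at most 1.98. CES1, the liver carboxylesterase, had 22.8 CPM and SLC14A1, a urea transporter, had 18.2, with no count for either in another library. COX7B2, a testis-type subunit of cytochrome oxidase, had 89.1 CPM from 176 counts and none elsewhere, which makes it at least 51.4-fold higher than a line at its floor of 3 counts. SPANXB1, a cancer testis antigen, had 27.3 CPM and none elsewhere. SPANXB1 belongs to a family of near-identical copies, so its reads may be split or shared with them.

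MSR1 and SIGLEC15, receptors usually found on macrophages and osteoclasts, had 38.5 and 30.4 CPM against at most 1.78 and 0.890. TENM1, RIMS4 and DRAXIN, known from synapses and axon guidance, had 25.8, 57.7 and 28.9 CPM, with at most 2.36 in another line. MSC and BCL11A, transcription factors, had 17.2 and 17.7 CPM with at most 0.392 elsewhere, and SMCO2 had 14.7 with none elsewhere. Blood markers as a list gave no parallel: 10 of its members had no count in SK-OV-3, their sum was 0.506 CPM, and the other lines had 0.214 to 16.3 CPM.

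Genes of the extracellular matrix were high as a list. Of 36 listed matrix genes with at least 10 CPM in a line, 7 lay above every other line (against 2.78% of all genes) and 1, CYR61, lay below. SPARC, among the 7, was given as a marker of SK-OV-3 and is no independent evidence for the list. The median log2 difference from the other lines was 1.40, against 0.17 over all genes at that level. FN1, fibronectin, had 782 CPM in SK-OV-3, 266 in COV504, 34.1 in COV362, 12.9 in IGROV-1, 9.25 in OVTOKO and 0 in OVMANA and OVKATE. COL1A1, the main chain of collagen I, had 219 CPM with 81.4 in COV504 and 30.2 in OVKATE. COL12A1 had 414 CPM with 114 in OVKATE, and COL3A1, COL6A2 and LUM (lumican, which spaces collagen fibrils) were the remaining collagen-linked genes above every line, at 33.9, 92.2 and 52.7 CPM. COV504 was next below SK-OV-3 for FN1, LUM, COL1A1 and COL3A1.

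The list was not uniform. COL1A2, the partner chain of COL1A1, had 57.2 CPM in SK-OV-3 but 429 in COV362, and VCAN, a large proteoglycan, had 288 against 1019 in OVTOKO and 761 in OVMANA. TNC, BGN and FBN2 were at 1.52 to 2.03 CPM in SK-OV-3, with up to 156, 189 and 109 in another line. CYR61, a matricellular target of YAP signalling, had 25.8 CPM against 70.9 to 304. In the library-spread test 21 of the 36 were higher and 4 lower, among them CYR61, LAMA5 and HSPG2, beside 16.1% and 8.18% of all genes. None of the 36 was called against the spread between lines.

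Listed markers of fibroblasts overlap with the matrix list and moved unevenly. LUM, COL1A1 and COL3A1 lay above every line, whereas THY1 had 0.506 CPM in SK-OV-3 against 1184 in OVKATE, and 2 of the list's members were at 0. Their summed level was 309 CPM in SK-OV-3 and 1.16 to 1214 in the other lines. Of the endothelial markers, PECAM1 had 10.6 CPM against at most 2.74, EGFL7 had 39.0 against 12.1 to 26.2, and CDH5 was at 0, as were 7 of the list in all. The part of other cells in the matrix result was not tested.

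Mesenchymal genes were high and several epithelial genes low. Of 18 mesenchymal genes at the same level, 2 lay above every line, 7 were the highest of the 7 lines and the median difference was 2.19. VIM, among those highest in SK-OV-3, was given as a marker of the line and is no independent evidence for the list. Over all genes, 2.78% lay above every line, 18.8% were highest in SK-OV-3 and the median was 0.17. SNAI2, a repressor of E-cadherin, had 32.4 CPM with 7.12 in COV504, 1.18 in COV362 and 0 elsewhere. PRRX1, a mesenchymal homeobox factor, had 22.8 CPM with 8.01 in COV504 and 0 elsewhere. ZEB1, another repressor of epithelial genes, had 54.7 against 0 to 33.0, and TPM2, a tropomyosin, had 352 against 1.07 to 299. CDH2, N-cadherin, ran the other way relative to the COV lines, with 51.7 CPM in SK-OV-3 and 174 in COV504. CALD1, caldesmon, was lowest in SK-OV-3 at 65.8 CPM against 107 to 356. The library-spread test called 13 of the 18 higher and CALD1 lower, beside 16.1% and 8.18% of all genes.

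Of 30 epithelial genes, 25 were below the mean of the other lines, 5 were the lowest of the 7 lines and the median difference was -1.42. Over all genes, 8.99% were lowest in SK-OV-3 and 6517 of 11211 lay above the mean of the other lines. JUP, plakoglobin of desmosomes and adherens junctions, was the member below every line, with 33.4 CPM against 91.7 to 344. AP1M2, the epithelial subunit of a sorting adaptor, had no count in SK-OV-3 and 5.09 to 348 CPM elsewhere. CLDN3, a tight junction claudin, had 10.6 CPM against 6.94 in OVTOKO and up to 570.3 in OVKATE. ESRP1, the epithelial splicing regulator, and ST14, matriptase, had no count in SK-OV-3, but OVTOKO and IGROV-1 also had at most 0.427. CDH1, E-cadherin, had 5.06 CPM, above OVTOKO, COV362 and IGROV-1 and below OVMANA (214), OVKATE (151) and COV504 (59.2). Low levels of these genes were therefore shared with other lines. EPCAM and KRT19 were also intermediate, with 45.6 and 223 CPM. In the library-spread test 7 of the 30 were lower and 3 were higher, KRT7 and DSP among the latter, beside 8.18% and 16.1% of all genes.

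**Figure D3:**
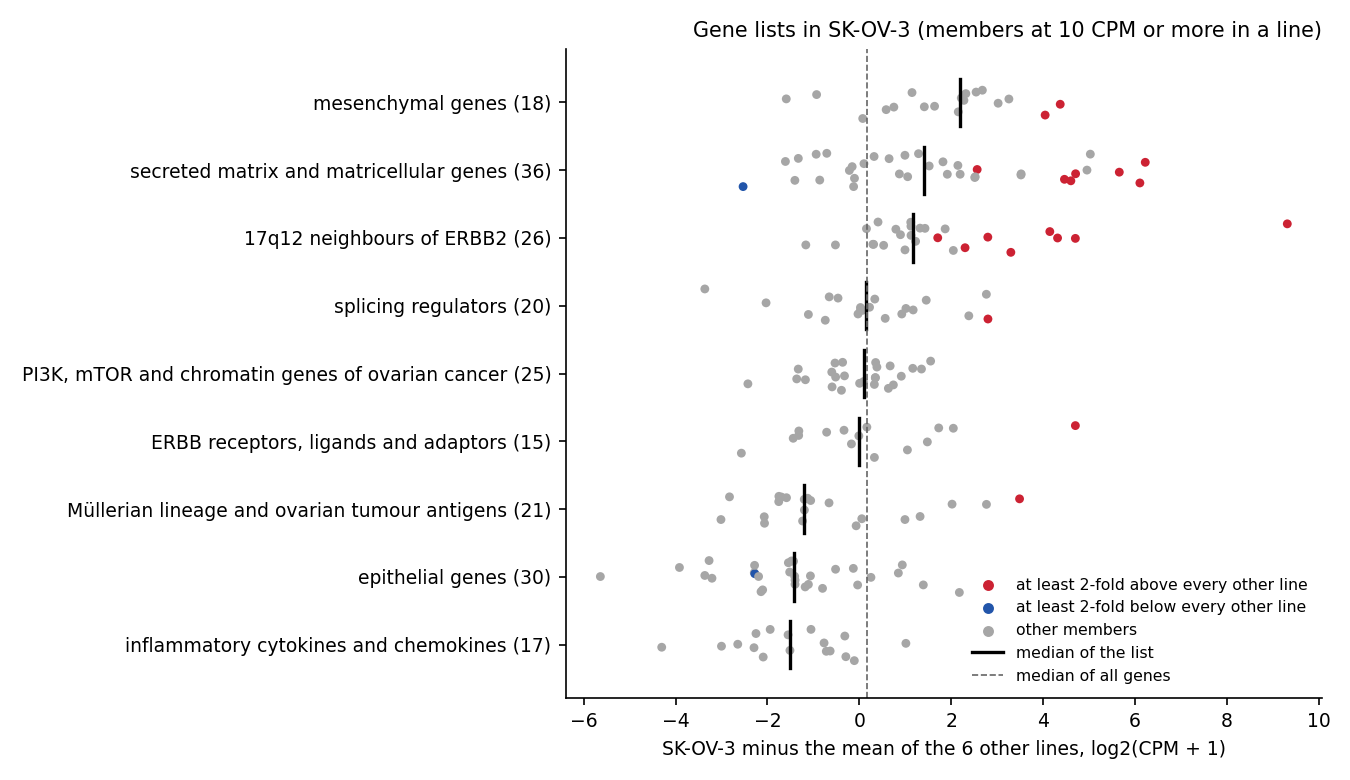
Difference of SK-OV-3 from the mean of the 6 other lines on the log2(CPM + 1) scale for members of 9 gene lists with at least 10 CPM in a line. Each point is a gene, coloured where it passed the 2-fold rule, bars are list medians (2.19 for mesenchymal, 1.40 for matrix, -1.42 for epithelial genes) and the dashed line is the median of all genes.

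Most listed lineage and inflammatory genes lay below the mean of the other lines, but only 1 of each list was the lowest of the 7 lines. Over all genes, 2.78% lay above every line by the 2-fold rule, 0.678% below, and 8.99% were the lowest. Of all 11211 genes, 6517 lay above the mean of the other lines, with a median of 0.17. Of 21 Müllerian lineage genes and ovarian tumour antigens, 1 lay above every line: ESR1, the oestrogen receptor, at 33.9 CPM against 0 to 15.3. The median difference was -1.20. MUC16, the CA125 antigen, had no count in SK-OV-3 or OVTOKO and up to 57.4 CPM elsewhere, and MSLN, mesothelin, had 2.03 CPM against up to 310 in OVKATE. PAX8 was the lowest of the 7 lines, close to COV504 at 91.7 CPM. MECOM, a transcription factor gained in ovarian cancer, was highest at 124 CPM against 18.8 to 75.4. Of 17 cytokine and chemokine genes, none passed the 2-fold rule and only IL18 lay above the mean of the other lines, with a median of -1.51. IL6 and CXCL5 had no count in SK-OV-3, as in OVKATE and IGROV-1, while OVMANA had 91.9 and 3010 CPM.

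A few genes tied to growth arrest and DNA repair are given singly, with no statement about a group. BTG2, an anti-proliferative factor, lay below every line, with 3.04 CPM against 12.5 to 92.8. DDB2, a nucleotide excision repair factor, also did, with 4.05 against 12.9 to 34.7. TIGAR, which diverts glucose to the pentose phosphate pathway, was lowest in SK-OV-3, with 2.53 against 7.42 to 62.0. PLK3, a stress-responsive kinase, lay above every line, at 29.4 CPM against 3.96 to 12.1.

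CDKN1A, the p21 inhibitor of cyclin-dependent kinases, had 21.8 CPM in SK-OV-3, near OVKATE (17.3), COV362 (13.7) and COV504 (11.6) and under OVMANA (150), OVTOKO (271) and IGROV-1 (353). MDM2, a ubiquitin ligase, divided the lines in the same way, with 24.8 CPM in SK-OV-3 and 20.4 to 31.2 in OVKATE, COV362 and COV504. The library-spread test called BTG2, DDB2, TIGAR and CDKN1A lower and PLK3 higher, and none of these was called against the spread between lines by edgeR.

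The coding genes farthest below the other lines included imprinted and chromatin genes. LRRFIP2, a regulator of Toll-like receptor and Wnt signalling (chromosome 3, 37052656 to 37183689), had no count in SK-OV-3 and 30.3 to 45.1 CPM in all other lines, which makes it at least 19.9-fold lower than the lowest of them.

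On the short arm of chromosome 17, UBE2G1, a ubiquitin-conjugating enzyme, had no count in SK-OV-3 against 11.9 to 52.1 CPM, at least 7.81-fold lower than the lowest line. CYB5D2 and ANKFY1, its neighbours on one side, also had no count, against 4.81 to 24.7 and 2.67 to 10.5 CPM. ZZEF1, further on the same side, lay above every other line at 32.9 CPM. CDKN2A on chromosome 9, the tumour suppressor locus of p16, had 0.506 CPM in SK-OV-3 from 1 count, but OVTOKO and COV504 had none while the other lines had 69.0 to 434. CDKN2A was thus low in 3 of the 7 lines.

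MEST and PEG10, both expressed from the paternal allele and both on the long arm of chromosome 7, had 2.03 and 1.01 CPM in SK-OV-3. The other lines had 89.0 to 853 for MEST and 34.7 to 251 for PEG10. SMARCC1, a core subunit of the SWI/SNF chromatin remodeller, had 2.03 CPM against 27.2 to 85.03, and its neighbours DHX30 and CSPG5 had 27.3 and 8.10. H1F0, a linker histone of resting cells, had 2.53 CPM against 53.7 to 196. GPRC5A and GPRC5B, retinoic acid-inducible receptors, had 3.55 and 1.52 CPM against at least 67.3 and 25.2. CLU, the secreted chaperone clusterin, was at 29.4 CPM in SK-OV-3 against 166 in COV362 and 3246 in OVKATE. FCGRT, the neonatal Fc receptor, NUAK2, a kinase of the AMPK family, ADORA1, an adenosine receptor, PLBD1, ANKRD33B and ERC1 were each at 0.506 to 2.03 CPM, with at least 10.4 in every other line.

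Other receptors of the ERBB family were not high in SK-OV-3. ERBB3, its usual partner, had 0.506 CPM in SK-OV-3 against 0.214 (IGROV-1) to 59.8 (OVKATE), and EGFR was the lowest of the 7 lines at 33.9 CPM against 37.9 to 194. ERBB4 had 10.6 CPM, with 64.3 in OVKATE and 44.1 in IGROV-1. Among the ligands, TGFA had 20.8 CPM, second to OVTOKO at 46.8, and AREG, EREG and HBEGF were at 6.58, 1.52 and 2.53. Of 15 listed receptors, ligands and adaptors, only ERBB2 passed the 2-fold rule and the median difference was -0.01. Over all genes, 2.78% lay above every line and 0.678% below by that rule, and the median was 0.17. The list of 25 genes of PI3K, mTOR and chromatin regulation had no member past the rule, with a median of 0.09 beside 0.17 for all genes.

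Called genes were unevenly spread over chromosomes, in other lines as well as in SK-OV-3. On chromosome 9, 11.6% of genes lay above every other line in OVKATE, and on chromosome 13, 4.81% lay below in COV362. Over all genes, SK-OV-3 had 2.78% above and 0.678% below. On chromosome 6, 37 of 532 genes (6.95%) lay above every other line in SK-OV-3 and none lay below, and the other lines had 0.752% to 2.63% of the same genes above. On chromosome 7 the order was turned: 19 of 504 genes (3.77%) lay below every line and 1 above (FZD1, a Wnt receptor, at 53.7 CPM against at most 20.3, named after its value was seen), while the other lines had 0.397% to 1.39% below. The median difference was 0.59 on chromosome 6, where 408 genes lay above the mean of the other lines, and -0.69 on chromosome 7, where 100 did. On chromosome 18, 7.05% of 156 genes lay above every line, beside 5.77% in OVKATE and 4.49% in COV504.

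**Figure D4:**
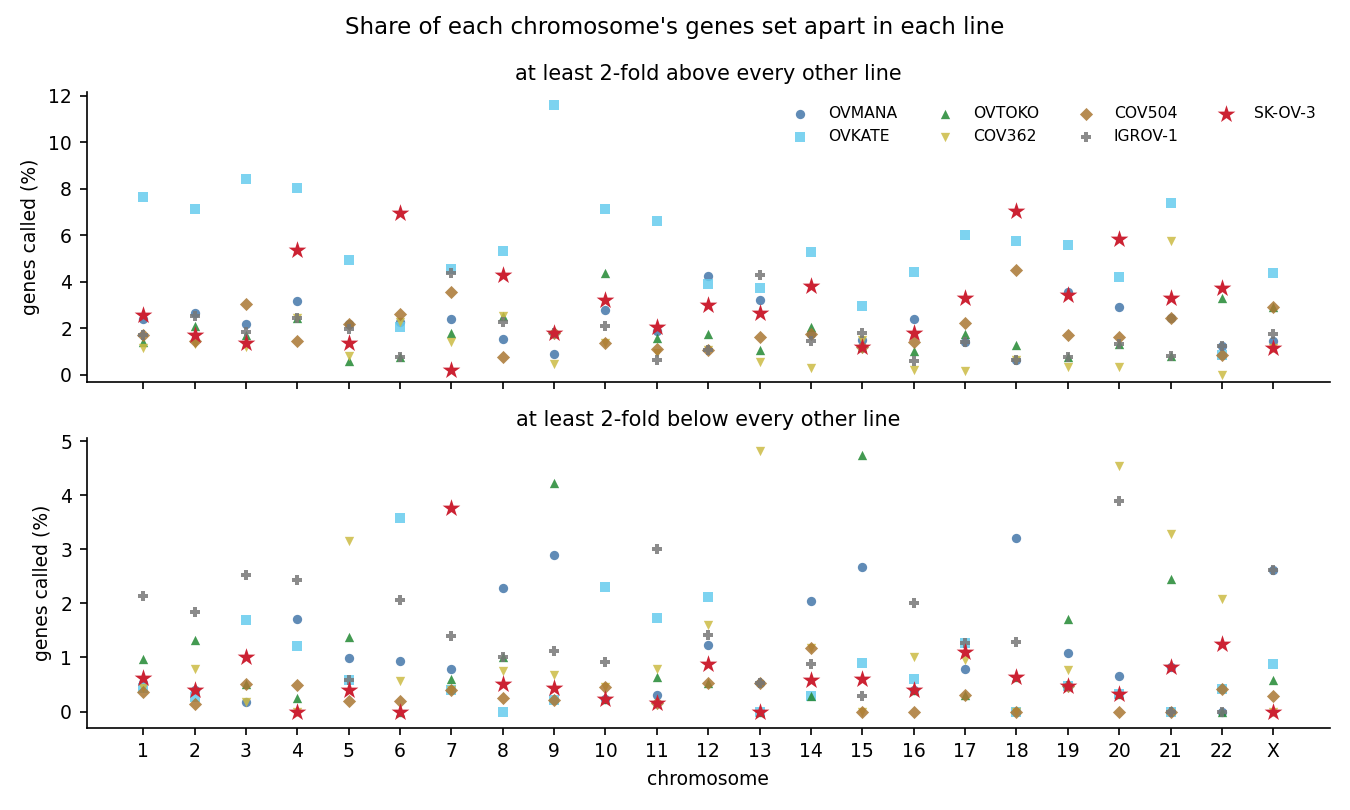
Percent of the genes of each chromosome that lay at least 2-fold above (top) or below (bottom) every other line, for each of the 7 lines. The SK-OV-3 star is the highest symbol for chromosome 6 above, at 6.95%, and for chromosome 7 below, at 3.77%.

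On chromosome 6 the genes above every line included the antigen-presenting HLA-E and HLA-F. HLA-E had 407 CPM in SK-OV-3 against at most 193, and HLA-F had 239 against 1.603 to 109. HLA genes are polymorphic and alike, so reads may be assigned between them with error. On chromosome 7 the genes below every line included MCM7, a subunit of the replicative helicase, at 24.3 CPM against 64.7 to 208, RPA3, a subunit of the single-strand binding protein, at 32.9 against 93.1 to 314, and CCT6A, a subunit of the cytosolic chaperonin, at 195 against 397 to 799.9. These examples were chosen after their values were seen.

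Windows of 25 neighbouring tested genes gave a finer view. The highest window was that around ERBB2, from CWC25 to RAPGEFL1, with a median of 1.56 and 24 of 25 genes above the mean of the other lines. A window on chromosome 9 from DCAF12 to CREB3 (34086387 to 35737004) had the same median, 1.56, with all 25 above. It held UBAP1, an endosomal sorting subunit, at 197 CPM against 26.7 to 50.3, and TLN1, talin, which links integrins to actin, at 192 against 38.5 to 91.7. The third window, from ZNF649 to ZNF347 on chromosome 19 (51889224 to 53159075), had a median of 1.36 with all 25 above. It is a cluster of zinc finger genes, with ZNF83 at 57.2 CPM against 0 to 21.3, and its members resemble each other in sequence. Many of its members were far lower, such as ZNF611 at 5.06 CPM against at most 3.21. ZNF611, and CA9 in the chromosome 9 window at 7.60 CPM against at most 1.33, passed the expression filter through SK-OV-3 alone. The direction of such genes was set by the filter, so the counts of genes above the mean are partly set by it.

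The lowest windows lay on chromosomes 12 and 7. That from FKBP4 to NOP2 on chromosome 12 (2794953 to 6568691) had a median of -1.24 with 2 of 25 genes above, and it contains TIGAR. RAD51AP1, a recombination factor in it, had 8.61 CPM against 17.3 to 41.9. On chromosome 7, MIOS to ITGB8 had a median of -1.10 with 4 of 25 above. Over 11635 windows, the 5th and 95th percentiles were -0.60 and 0.73.

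Transcript shares, the percent of a gene's counts assigned to a transcript, were compared for 2221 genes with at least 50 counts in every line. In 9 of them (0.405%) a transcript lay at least 20 points outside the range of the other lines. The number was 31 with a minimum of 20 counts and 3 with a minimum of 100. Between the IGROV-1 libraries the same share differed by a median of 1.86 points and by 13.3 at the 95th percentile. Against the spread between lines, edgeR's usage test called 0 of 4300 genes (0%), and against the IGROV-1 pair it called 12 of 4516 (0.266%). On simulated data the first test recovered 1.5% of genes with a log2 change of 4, so it could rarely call a single library.

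The widest gap was in ATP5C1, now named ATP5F1C, the gamma subunit of the mitochondrial ATP synthase. ATP5F1C-201 held 57.4% of 937 counts in SK-OV-3 (54.3 to 60.6). It held 19.4% in COV504, 13.5% in COV362, 7.70% in IGROV-1, 4.36% in OVTOKO, 1.02% in OVMANA and 0.553% in OVKATE. SK-OV-3 was the only line in which it was the major transcript, and the usage test against the IGROV-1 pair gave an adjusted p of 0.0069. ATP5F1C-201 has 9 exons and ATP5F1C-202 has 10, with coding lengths of 891 and 894 bases. The last coding bases of both (chromosome 10, plus strand, GENCODE 29) show how little of the protein the choice alters: capitals mark bases read from an exon position that the other transcript does not code from (chr10:7807659-7807659 in ATP5F1C-201 and chr10:7806974-7806977 in ATP5F1C-202).
ATP5F1C-201: aattatctctggtgctgcagctctG
ATP5F1C-202: aattatctctggtgctgcagctctGGAT

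MYL6, the essential light chain of non-muscle and smooth muscle myosin, and ERBIN, a scaffold that binds ERBB2, also shifted between coding forms. MYL6-218 held 45.3% of the counts in SK-OV-3 (43.7 to 46.9) and 9.62% to 26.9% elsewhere, 18.4 points outside the other lines and so short of the 20-point rule. The usage test against the IGROV-1 pair called MYL6 (adjusted p = 0.0073). MYL6-218 and MYL6-207 have equal coding lengths of 453 bases and differ in the last 26, in capitals (chr12:56160626-56160651 and chr12:56161387-56161412, plus strand).
MYL6-218: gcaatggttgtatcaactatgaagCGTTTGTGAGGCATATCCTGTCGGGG
MYL6-207: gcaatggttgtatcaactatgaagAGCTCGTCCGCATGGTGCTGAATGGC

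ERBIN-202, which lacks a coding stretch of 207 bases, held 69.7% in SK-OV-3 (60.1 to 77.8) and 15.6% to 46.1% elsewhere. ERBIN-204, which has it, held 28.8%, against 44.4% to 81.1%. ERBIN had about 101 counts in SK-OV-3, and its usage was not called against the IGROV-1 pair (adjusted p = 0.46). The stretch is shown in capitals with its flanking coding bases (chr5:66075024-66075230, plus strand).
ERBIN-204: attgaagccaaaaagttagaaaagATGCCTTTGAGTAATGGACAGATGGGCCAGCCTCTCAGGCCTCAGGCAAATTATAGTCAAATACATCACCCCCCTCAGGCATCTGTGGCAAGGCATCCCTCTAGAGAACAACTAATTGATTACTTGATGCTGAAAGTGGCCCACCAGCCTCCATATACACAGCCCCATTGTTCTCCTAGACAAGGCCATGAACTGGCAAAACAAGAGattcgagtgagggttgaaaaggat

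Higher shares in SK-OV-3 were also found in SRRT, TROAP and METTL26. SRRT, a cap-binding partner in RNA decay, gave SRRT-213 at 90.6% (82.6 to 95.2) against 38.0% to 56.5%. The SRRT transcripts compared are close in coding length, at 2613 to 2628 bases. TROAP, a spindle protein, gave TROAP-201 at 64.5% (51.5 to 75.8) against 28.03% to 41.6%. SRRT and TROAP had only 85 and 56 counts in SK-OV-3. METTL26 gave METTL26-205 at 42.4% (36.8 to 48.2) against 6.18% to 19.5%. In the usage test against the IGROV-1 pair METTL26 was called, and SRRT and TROAP were not. These 3 genes were picked by the 20-point rule, so lying outside the other lines was set by the choice. The intervals cover counting error in SK-OV-3 only, not in the other lines.

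Lower shares were found in DDX27, EPB41L1, MAGED1 and SHISA5. DDX27, an RNA helicase of ribosome assembly, had DDX27-201 at 34.5% against 65.0% to 87.0%, and EPB41L1, a membrane skeleton protein, had EPB41L1-212 at 26.8% against 50.6% to 88.9%. MAGED1, a MAGE family adaptor, had MAGED1-201 at 66.5% (61.2 to 71.5) against 89.4% to 95.2%. Its alternative MAGED1-204 has the same coding length of 2334 bases. SHISA5, a membrane protein of the endoplasmic reticulum, had SHISA5-206 at 37.0% (30.4 to 44.0) against 58.2% to 89.5%. In the usage test against the IGROV-1 pair MAGED1 was called, and DDX27, EPB41L1 and SHISA5 were not.

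**Figure D5:**
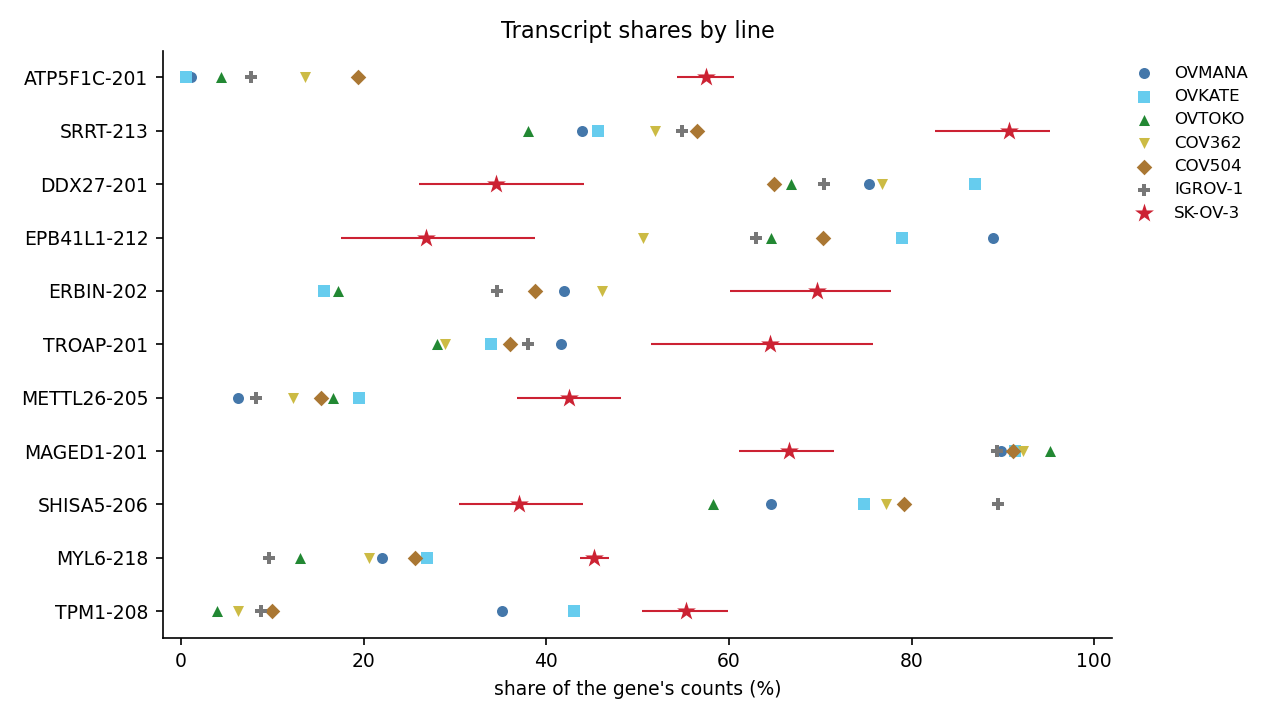
Share of the gene's counts held by the named transcript in each line, in percent, for the 9 genes past the 20-point rule and for MYL6 and TPM1. Stars with 95% Wilson intervals are SK-OV-3, which sits at 57.4% for ATP5F1C-201 with the other lines at 0.553% to 19.4%.

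TPM1, a tropomyosin of actin filaments, had TPM1-208 at 55.3% in SK-OV-3, 43.0% in OVKATE, 35.2% in OVMANA and 3.96% to 9.96% in the rest, so the lines split and SK-OV-3 lay at the upper end. PKM-202 lay inside the range of the other lines, with 70.01% of PKM, a glycolytic kinase, against 67.5% to 78.1%. CD44-201, the short form of a hyaluronan receptor, was nearly the whole of CD44, with 98.9% (98.2 to 99.4) against 94.7% to 98.01% in the 4 other lines with counts, above their range by under a percentage point. Among 20 splicing regulators, 1 lay above every line, beside 2.78% of all genes: RBM24, at 12.7 CPM against 0 to 3.53. QKI was highest in SK-OV-3 at 217 CPM against 32.6 to 159. The median difference of the list was 0.15, near the 0.17 of all genes.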

How the data were processed

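Estimated counts per transcript were deposited by the authors for each library, and were made from reads aligned to GRCh38 with minimap2 2.24-r1122, per the submitters' processing notes. For the quantifier and the annotation release the labels name nothing. The authors also deposited TPM values, which equal counts scaled to a total of 1000000 and are not divided by length. Counts were summed per gene identifier and rounded for count tests, and 722 of 57110 identifiers join overlapping genes. Transcripts were matched to GENCODE 29 (99.7% found). No source says whether strand was used in counting, which leaves antisense and overlapping pairs uncertain.

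The members and gene lists were chosen with earlier results of these data known. Samples were grouped by the labels. The IGROV-1 pair was checked and differed by more than counting noise (chi-square per degree of freedom 4.36 over 9659 genes). SK-OV-3 was tested against 6 lines with edgeR 4.0.16 (R 4.3.3; TMM, default expression filter, quasi-likelihood, two-sided, Benjamini-Hochberg, adjusted p under 0.05), with 5 residual degrees of freedom and a common biological coefficient of variation of 81.6%. Between the IGROV-1 libraries it was 10.7%. Transcript usage was tested with edgeR's exon-level procedure and a Simes p per gene. DESeq2 1.42.0, other scalings, filters and pseudocounts, and leaving out each line or IGROV-1 library were alternatives. On simulated data of the line comparison, 0% of 200 genes changed by a log2 of 2 were recovered (12166 genes), 26% at 4 (12151 genes) and 48.5% at 6 (12195 genes). In the last case 88% of raised and 9% of lowered genes were recovered. The usage test against the line spread recovered 1.5% at 4 (3853 genes). Run on data drawn with the smaller gene-level spread of the IGROV-1 pair, that same test recovered 91.5% at 2 (3357 genes). The usage test against the IGROV-1 pair was itself not simulated.

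Named genes were, by rule, the 20 coding genes farthest above and 15 farthest below every other line, up to 10 genes with the widest share gaps (9 qualified), 3 highest and 3 lowest windows (some items are not reported here), and list members. Others were named after their values were seen: genes neighbouring those at 0, examples on chromosomes 6 and 7 and within windows, and those among the further observations. Of 392 list entries, 9 matched only joined identifiers and were left out. Python 3.11.15 was used for tables.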

Additional observations from a re-analysis of the deposited data

How the results depend on the processing

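PPP1R1B kept its direction in every setting run, with a log2 change of 11.95 to 13.56, but its call was lost without COV362 or without COV504, so that leaving out a line gave 0 to 1 genes called higher. The number called higher was 15 with DESeq2, 2070 against the spread of the IGROV-1 PromethION pair and 2519 against that of the IGROV-1 libraries of each instrument. The number called lower was 54, 1052 and 1556 under the same settings. A 4-fold rule left 92 genes above and 18 below every line, and leaving out a line or an IGROV-1 library gave 306 to 414 above and 74 to 118 below, the most without OVTOKO. Transcript usage was called in 12 genes against the IGROV-1 pair. The 9 genes with a share 20 points outside became 31 at a minimum of 20 counts, 3 at 100 counts, 40 at 10 points and 8 to 13 when a line or library was left out. The median difference around ERBB2 was 3.72 within 100 kb, 1.12 within 1000 kb and 2.04 to 2.36 when a line or library was left out. The causes were not tested, beyond the change in genes or samples that each setting makes. The 35 named genes kept their direction in all settings run. They were picked as the farthest above or below every other line in these same counts, so this was largely set by the choice. No paired analysis was possible because SK-OV-3 has 1 library and shares no replicate number beyond the first with another line. With a single SK-OV-3 library, the depth sets a floor of 1.52 CPM, and genes near it were described by counts.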

Other observations

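Several further genes lay above every other line in SK-OV-3 and belong to no list used above. They were picked after their values were seen, and no theme was tested. CHAC1, which degrades glutathione, had 82.0 CPM in SK-OV-3 against 1.16 to 8.02 in the other lines. TRIB3, a pseudokinase, had 200.1 against 7.71 to 36.3, and DDIT3, the stress factor CHOP, had 206 against 20.9 to 65.8. SLC7A11, the cystine transporter, had 97.2 against 1.16 to 14.96, and its partner chain SLC3A2 had 577 against 110 to 231. NUPR1, a stress-induced chromatin protein, had 731 against 0 to 157. The seryl- and tyrosyl-tRNA synthetase genes SARS and YARS had 400 and 209 CPM against at most 121 and 99.9. None of these was called against the spread between lines by edgeR (adjusted p of 0.60 to 0.97).

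PTGIS, prostacyclin synthase, had 257 CPM against at most 24.3, SFRP1, a secreted Wnt antagonist, 215 against at most 20.8, and CTHRC1, a secreted collagen-linked protein, 258 against at most 25.7. The homeobox genes HOXB5, HOXB6, HOXB8 and HOXB9, neighbours on chromosome 17, had 36.0, 208, 13.7 and 20.3 CPM. IGROV-1 was next for HOXB5, HOXB6 and HOXB9, at 16.5, 44.8 and 3.21 CPM. Among replication and checkpoint genes below every line, MCM6 had 32.4 CPM against 80.2 to 176, CDC45 had 6.08 against 15.3 to 39.2 and CHEK2 had 2.03 against 10.2 to 17.9.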
